A study of Prunus persica with 16 samples.

Results

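The 139 genes described here had higher group medians in buds of peach trees sprayed with hydrogen cyanamide (HC) than in buds of untreated trees. This held both 7 and 3 days after the spray. For some of them the group mean of a day was higher in the untreated trees. They were chosen from 5733 genes with a mean of 20 FPKM or more (a read level scaled to gene length and library size), out of 26873 gene identifiers in all. For each gene the group median of log2(FPKM + 1) in control buds was subtracted from that in HC buds, and a gene was taken where this difference was 1 or more on both days. A run of 7 identifiers was left out by the rule, Prupe.1G531100 to Prupe.1G531700, which removed 0 genes. The same values that chose the genes are given as a description, so the difference of HC from control is not tested. Since no identifier was paired with a gene name in the files or the reference used here, genes are given by identifier and no function is assigned to any of them.

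Hydrogen cyanamide is a growth regulator used on deciduous fruit trees and vines to break bud dormancy where winter chilling falls short. In grapevine buds it is known to inhibit catalase, the enzyme that removes hydrogen peroxide, and to be followed by signs of oxidative stress and of impaired respiration before bud break.

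Buds came from 5-year-old trees of the low-chill cultivar TropicBeauty on Floridaguard rootstock, in an orchard in Florida, which had met 11 of the 150 chilling hours they require. The 4 groups of 4 libraries were HC buds at 7 days, control buds at 7 days, HC buds at 3 days and control buds at 3 days. The HC trees received 1% (v/v) hydrogen cyanamide with 0.15% (v/v) surfactant. The labels mention no surfactant for the control trees, so spray and surfactant cannot be told apart. The labels name 4 trees per treatment for both days together, and a lasting difference between these sets of trees cannot be told apart from the spray. They do not say whether a replicate number marks 1 tree on both days. The labels give only peach buds as tissue, and without gene names this could not be checked against marker genes.

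Libraries differed in how many genes they detected. Genes above 0 FPKM numbered between 13052 and 18378 in HC buds at 7 days, between 10356 and 15834 in control buds at 7 days, between 13366 and 18271 in HC buds at 3 days and between 8667 and 15930 in control buds at 3 days. The files give no read counts for single libraries, so depth is known only through such numbers. The lowest numbers were in control replicate 1 of 7 days and control replicate 2 of 3 days, and the share of the chosen genes listed at 0 was highest in these libraries.

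Among the 139 genes the median difference of HC from control was 1.87 at 7 days (range 1.01 to 8.77) and 2.03 at 3 days (range 1.00 to 8.19), both on the log2(FPKM + 1) scale. Over all 5733 genes with 20 FPKM or more the median differences were 0.10 at 7 days and 0.01 at 3 days. The chosen genes made up 27.3% of the 510 genes with a difference of 1 or more at 7 days and 27.4% of the 508 with one at 3 days. The difference was larger at 7 days in 66 members and larger at 3 days in 73. It was 2 or more on both days in 40 members, 4 or more on both days in 10, and under 2 on both days in 41. In 36 members every HC library lay above every control library at 7 days, and in 66 members at 3 days, beside 5.93% and 7.74% of all 5733 genes. In 19 members the libraries were separated on both days, beside 0.837% of all genes, and in 56 they overlapped on both days. The rule chose on these same contrasts, so nothing is read from the shares. Without HC replicate 2 the count at 7 days was 58 instead of 36. With fewer libraries separation is easier to reach for any gene, and the share over all genes was not taken, so nothing is read from this rise. In bulk tissue, less RNA per cell and fewer cells of a type cannot be told apart.

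**Figure D1:**
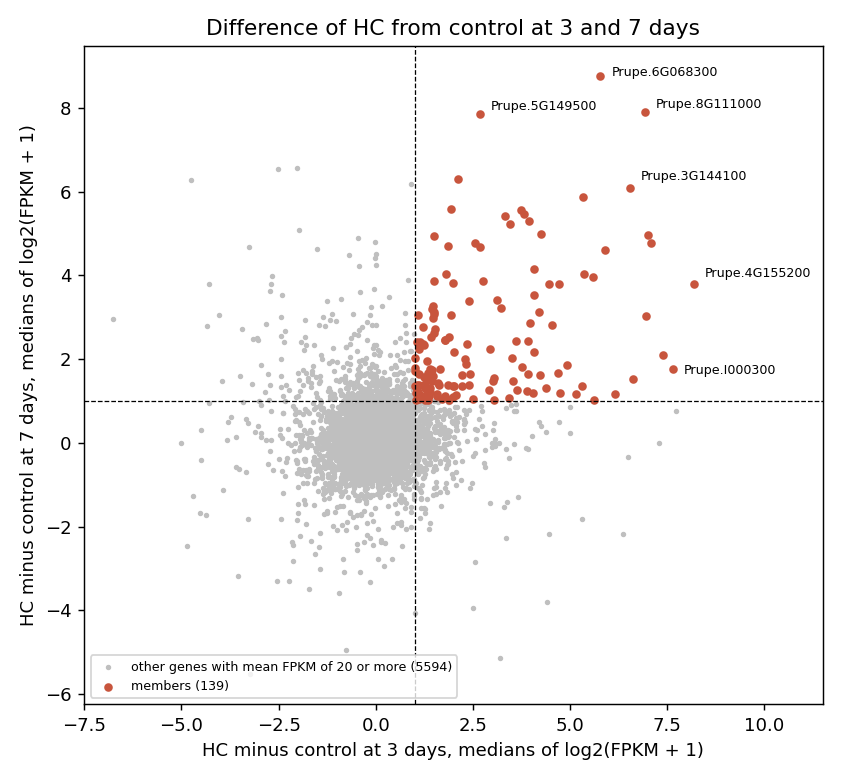
Difference of HC from control buds at 7 days (vertical axis) against that at 3 days (horizontal axis), as medians of log2(FPKM + 1) over 4 libraries per group, for the 139 members (red) and the other 5594 genes with a mean of 20 FPKM or more (grey). Dashed lines mark the threshold of 1 on each axis, and the members fill the upper right corner, from just past the threshold to 8.77 at 7 days and 8.19 at 3 days.

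The members were of moderate abundance. Their median mean level was 40.5 FPKM over all libraries, against 52.5 FPKM for all genes with 20 FPKM or more. In 67 members the mean was under 40 FPKM, in 32 it was 100 FPKM or more and in 7 it was 500 FPKM or more. The median member had a group median of 50.3 FPKM in HC buds and 11.9 FPKM in control buds at 7 days, and of 67.0 FPKM in HC buds and 12.2 FPKM in control buds at 3 days. Over all 5733 genes the same values were 51.8 FPKM in HC buds and 47.2 FPKM in control buds at 7 days, and 49.5 FPKM in HC buds and 49.0 FPKM in control buds at 3 days. The rule chose on these medians and on the mean over all libraries, which the typical member passed through its HC libraries, so nothing is read from its lower level in control buds.

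**Figure D2:**
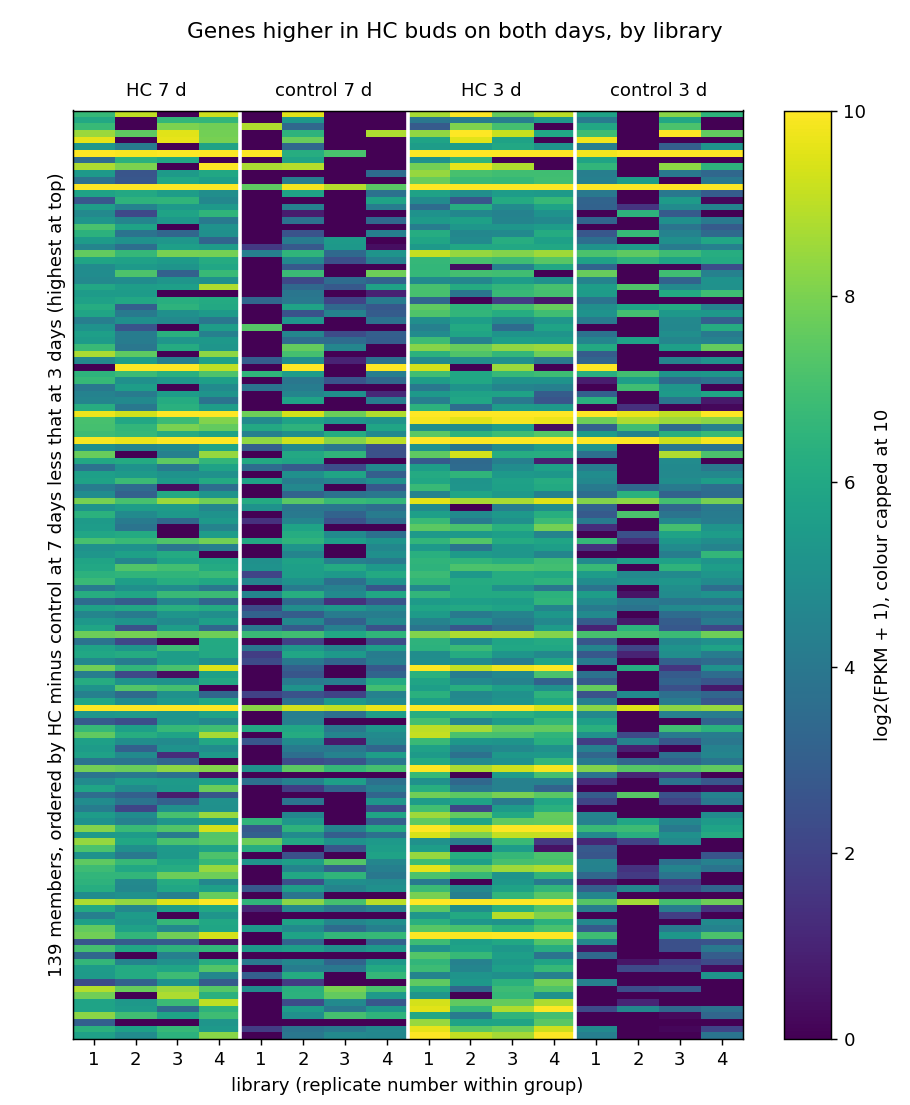
Level of each of the 139 members (rows) in each of the 16 libraries (columns) as log2(FPKM + 1), with colour capped at 10, ordered by the difference of HC from control at 7 days less that at 3 days. Dark cells, listed at or near 0, lie mostly in control libraries, above all in control replicate 1 of 7 days and control replicate 2 of 3 days.

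Values of 0 were common in the control libraries and not evenly spread. Members were listed at 0 in 4.86% of values in HC buds and 31.3% in control buds at 7 days, and in 2.52% in HC buds and 25.7% in control buds at 3 days. Over all 5733 genes these shares were 1.48% in HC buds and 3.87% in control buds at 7 days. At 3 days they were 1.40% in HC buds and 4.84% in control buds. The rule favours low control medians, so the excess of 0 in control buds is not read as a result. Control replicate 1 of 7 days, with 10356 genes above 0, listed 82 of the 139 members at 0 (59.0%), beside 9.91% of all 5733 genes. Control replicate 3 of 7 days, with 13286 genes above 0, listed 53 members at 0 (38.1%), beside 2.97% of all genes. Control replicate 2 of 3 days, with 8667 genes above 0, listed 77 members at 0 (55.4%), beside 16.0% of all genes. The other 5 control libraries listed between 12 and 27 members at 0, and the 8 HC libraries between 0 and 13. Of the 139 genes, 97 met the rule without control replicate 1 of 7 days, 112 without control replicate 2 of 3 days and 83 without both. Without control replicates 1 and 3 of 7 days, a choice made after the values were seen, 93 did. When each of the 16 libraries was left out in turn, 53 genes met the rule every time.

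**Figure D3:**
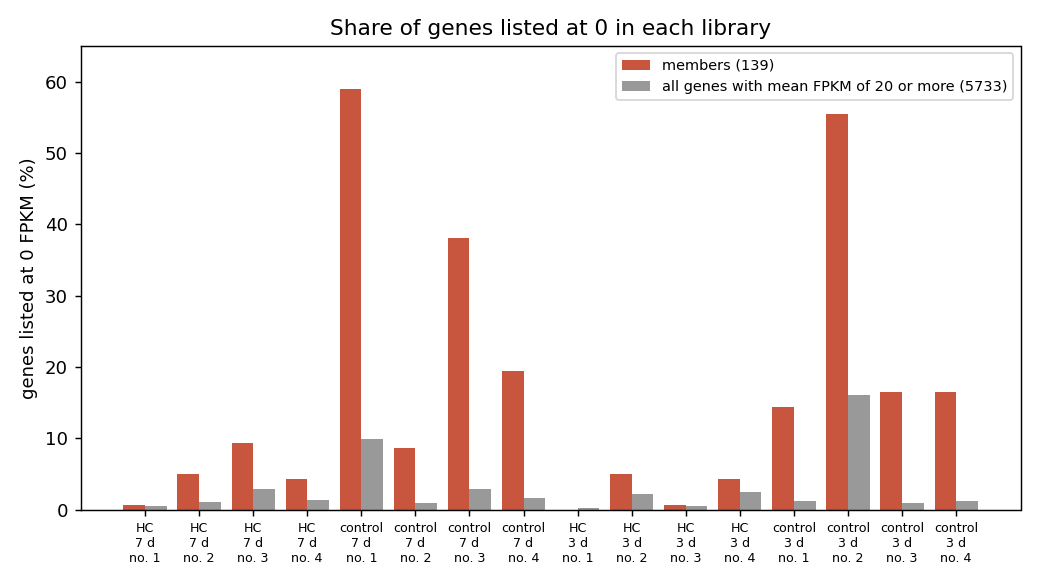
Percent of genes listed at 0 FPKM in each library, for the 139 members (red bars) and all 5733 genes with a mean of 20 FPKM or more (grey bars). Members are at 0 most often in control replicate 1 of 7 days (59.0%) and control replicate 2 of 3 days (55.4%), and in under 10% of cases in every HC library.

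Only 26 members were above 0 in all 16 libraries. Their median differences were 1.31 at 7 days and 1.39 at 3 days, with the highest at 3.06 at 7 days and 3.91 at 3 days. Their libraries were separated in 12 at 7 days and in 17 at 3 days, beside 5.93% and 7.74% of all 5733 genes. The other 113 members had median differences of 2.25 at 7 days and 2.39 at 3 days. The rule chose on these contrasts, and values of 0 in control libraries widen the difference, so nothing is read from these numbers. Replicates of the members also varied more than those of all genes with 20 FPKM or more. The rule favours genes with low control medians, where values at 0 widen the SD. It is also met more easily by genes with a wide spread, so nothing is read from this. The median SD of a member on the log2 scale was 0.95 in HC buds and 1.87 in control buds at 7 days, and 0.72 in HC buds and 1.90 in control buds at 3 days. Over all 5733 genes these values were 0.43 in HC buds and 0.55 in control buds at 7 days, and 0.39 in HC buds and 0.60 in control buds at 3 days.

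A run of 3 neighbouring identifiers, Prupe.3G143900 to Prupe.3G144100, was among the members with the largest differences. For Prupe.3G144100 the smaller of the differences of both days was next to the highest of all members. At 7 days it had 228, 95.1, 139 and 717 FPKM in HC buds, against 0, 7.05, 0 and 5.82 FPKM in control buds. At 3 days the HC libraries held 1867, 545, 883 and 999.97 FPKM of it, against 0, 71.4, 1.92 and 33.5 FPKM in control. All HC libraries lay above all control libraries on both days, with differences of 6.10 at 7 days and 6.55 at 3 days.

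Prupe.3G144000, the next lower identifier, was singled out after its values were seen because it completes the run. It had 114, 63.2, 71.2 and 351 FPKM in HC buds, against 0, 21.9, 7.52 and 18.8 FPKM in control buds at 7 days. Its 3-day values were 795, 221, 369 and 451 FPKM in HC buds, against 20.7, 1.78, 21.8 and 13.1 FPKM in control buds. The groups did not overlap on either day, and the differences were 2.81 at 7 days and 4.55 at 3 days. For Prupe.3G143900 the 7-day values were 28.4, 32.6, 19.4 and 204 FPKM in HC buds, against 0, 13.7, 0 and 0 FPKM in control buds. At 3 days it reached 243, 19.0, 95.0 and 172 FPKM in HC buds, against 23.2, 0, 0 and 0 FPKM in control buds. Its groups were separated at 7 days, and at 3 days HC replicate 2 lay below control replicate 1. In each of these 3 genes HC replicate 4 was the highest HC library at 7 days and HC replicate 1 the highest at 3 days.

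A second run of 3 within 10 identifiers held Prupe.7G050900, Prupe.7G051200 and Prupe.7G051300. Prupe.7G050900 had 279.6, 109, 155 and 653 FPKM in HC buds, against 6.02, 87.4, 21.2 and 66.0 FPKM in control buds at 7 days. The same gene had 2269, 594, 1104 and 1259 FPKM in HC buds, against 109, 115, 16.6 and 54.9 FPKM in control buds at 3 days. Its groups were separated on both days, with differences of 2.44 at 7 days and 3.91 at 3 days, and it was above 0 in every library. Prupe.7G051300 stood at 226, 94.1, 228 and 653 FPKM in HC buds, against 0, 55.2, 98.3 and 103 FPKM in control buds at 7 days. Its 3-day levels were 1846, 979, 1434 and 1175 FPKM in HC buds, against 119, 0, 38.3 and 143 FPKM in control buds. At 7 days HC replicate 2 lay below the 2 highest control libraries, while at 3 days every HC library was above all controls. Prupe.7G051200, between them and named after its values were seen, had differences of 2.03 at 7 days and 3.5 at 3 days.

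Among identifiers with the letter I in place of a scaffold number, 3 of 10 genes with 20 FPKM or more were members. On the numbered scaffolds the share lay between 1.54% and 3.42%. With so few genes, and adjacent identifiers among them, nothing is read from this. Prupe.I000300 had 51.9, 27.8, 84.4 and 299 FPKM in HC buds, against 0, 14.6, 25.3 and 23.8 FPKM in control buds at 7 days. At 3 days its level was 1312, 537, 406 and 1090.5 FPKM in HC buds, against 19.0, 0, 0 and 13.7 FPKM in control buds. The groups did not overlap on either day, and its 3-day difference of 7.64 stood far above its 7-day difference of 1.77. Its neighbour Prupe.I000200 had differences of 4.04 at 7 days and 5.36 at 3 days, and Prupe.I005800 had 1.63 at 7 days and 1.13 at 3 days. Both were named after their values were seen. So was Prupe.4G155200, which had the highest 3-day difference of all members at 8.19, beside 3.79 at 7 days. It had 54.8, 39.2, 110 and 529 FPKM in HC buds, against 0, 3.96, 26.3 and 5.55 FPKM in control buds at 7 days. The 3-day values were 652, 189, 198 and 431 FPKM in HC buds, against 0, 1.03, 0 and 0 FPKM in control buds. Its groups were separated on both days.

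Of the 3 most abundant members, Prupe.3G204900 and Prupe.2G263900 were above 0 in every library. Prupe.3G204900, with the highest mean of all members, had 2155, 1375, 2822 and 3329 FPKM in HC buds, against 184, 907, 472 and 174 FPKM in control buds at 7 days. Its 3-day values were 5467, 4003, 3917 and 3640.1 FPKM in HC buds, against 1839, 1202, 2560.2 and 1888 FPKM in control buds. Every HC library exceeded every control library on both days, by a median difference of 3.06 at 7 days and 1.09 at 3 days. Prupe.2G263900 had 958, 846, 1839 and 1721 FPKM in HC buds, against 326, 621, 286 and 499 FPKM in control buds at 7 days. At 3 days the values were 3023, 2205, 1601 and 2862 FPKM in HC buds, against 1032, 1411, 608 and 940.5 FPKM in control buds. This gene too was separated on both days, with differences of 1.67 at 7 days and 1.35 at 3 days.

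Some members were listed at or near 0 in most control libraries. Prupe.4G017000 had 73.5, 15.1, 81.2 and 45.9 FPKM in HC buds at 7 days, while each of the 4 control libraries of that day had 0. The 3-day libraries held 84.2, 10.9, 44.1 and 41.0 FPKM in HC buds, against 0, 1.62, 0 and 0.17 FPKM in control buds. Both days showed no overlap, with differences of 5.89 at 7 days and 5.33 at 3 days. Prupe.1G155200 had 17.3, 3.22, 31.6 and 31.4 FPKM in HC buds, against 0, 0, 0 and 3.79 FPKM in control buds at 7 days. Its 3-day levels were 126, 3.21, 42.9 and 80.1 FPKM in HC buds, while all 4 control libraries were listed at 0. The 7-day groups overlapped by 1 library and the 3-day groups did not.

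In all, 11 members were listed at 0 in 6 or more of the 8 control libraries. The single member at 0 in all 8 was Prupe.1G032400, named here for that reason after its values were seen. It had 7.40, 0, 0 and 36.2 FPKM in HC buds at 7 days and 351, 54.6, 56.2 and 171 FPKM at 3 days. Beside it in identifier order, and also named after its values were seen, Prupe.1G032500 had 33.3, 15.7, 39.0 and 148 FPKM in HC buds, against 0, 4.56, 0 and 53.3 FPKM in control buds at 7 days. That gene had 341, 74.0, 99.9 and 144 FPKM in HC buds, against 5.44, 0, 0 and 5.18 FPKM in control buds at 3 days. Its groups were separated at 3 days and overlapped at 7 days.

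**Figure D4:**
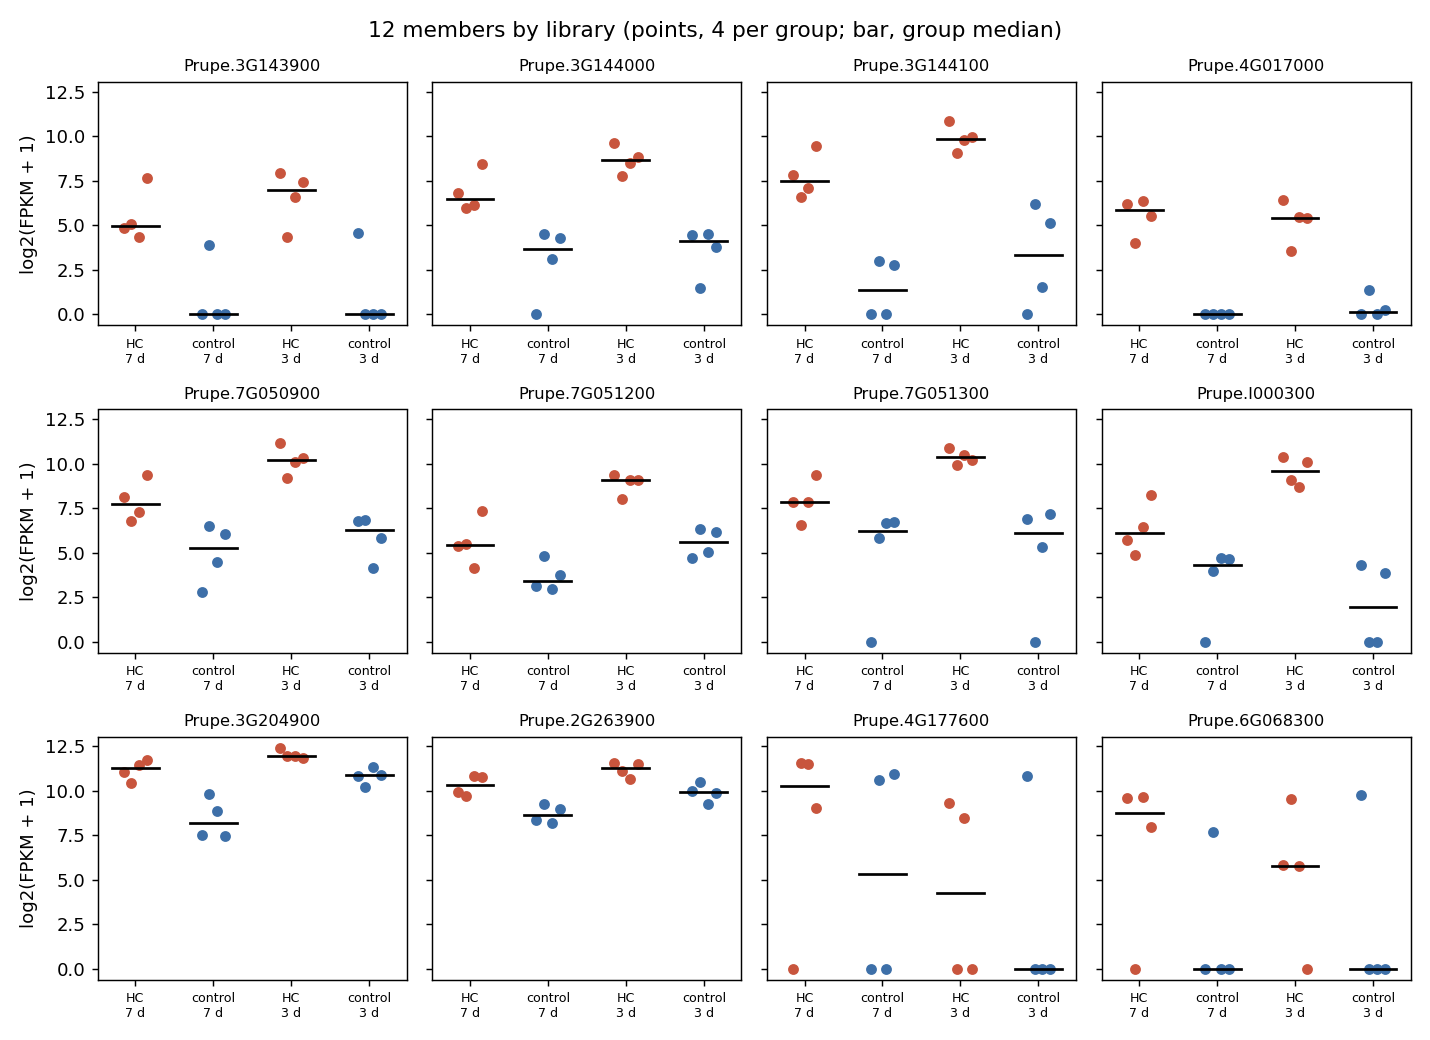
Level of 12 members in each library as log2(FPKM + 1), HC buds in red and control buds in blue, with 4 points and a bar at the median per group. In the top 2 rows HC libraries lie above control with few exceptions, while Prupe.4G177600 and Prupe.6G068300 (lower right) hold both 0 and high values in every group.

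A number of high FPKM values went with little deposited signal. The authors' deposited tables give 1 signal value per gene, treatment and day, in a unit that is not stated, and a signal per FPKM was taken as the sum of the 4 signals over the sum of the 4 group mean FPKM. The median of this ratio was 4.05 over the 136 members in both tables and 5.58 over 5711 genes with 20 FPKM or more. In 13 of the 136 members (9.56%) the ratio was under 0.1 times the median of all 5711 genes, beside 1.31% of those genes. The rule chose on FPKM, by which the signal is divided here, so nothing is read from this excess. All 13 were listed at 0 in 1 or more libraries, and 11 of them in 1 or more HC libraries. None of the 13 was separated from control at 7 days and 2 were at 3 days, beside 5.93% and 7.74% of all 5733 genes. The rule chose on these contrasts, so nothing is read from these counts.

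Prupe.4G177600 had the lowest ratio of all members, 0.00688. Its libraries held 0, 3060, 2943 and 530 FPKM in HC buds, against 0, 1546, 0 and 1978 FPKM in control buds at 7 days. Its 3-day values were 644, 0, 357 and 0 FPKM in HC buds, against 1803, 0, 0 and 0 FPKM in control buds. Mean levels at 3 days were higher in control (250.3 ± 312 FPKM in HC buds and 451 ± 901 FPKM in control buds, SD, n = 4), although the median was not. In the authors' deposited tables its signal was only 6.72 in HC and 6.75 in control at 7 days, and 3.60 in HC and 5.06 in control at 3 days. Without control replicate 1 or 3 of 7 days its 7-day difference was -0.31 instead of 4.99.

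Prupe.6G068300, with the highest 7-day difference of all members at 8.77, was of the same kind. It had 766, 0, 787 and 247 FPKM in HC buds, against 0, 208, 0 and 0 FPKM in control buds at 7 days. The same gene had 55.1, 744, 53.2 and 0 FPKM in HC buds, against 879, 0, 0 and 0 FPKM in control buds at 3 days, with the highest value in a control library. Prupe.8G111000, with the highest smaller-of-both-days difference (7.92 at 7 days and 6.93 at 3 days), was another. Its 7-day values were 419.8, 184, 0 and 314 FPKM in HC buds, against 0, 132, 0 and 0 FPKM in control buds. At 3 days it had 83.5, 152, 96.2 and 219.9 FPKM in HC buds, against 6.47, 0, 0 and 0 FPKM in control buds, and there the groups did not overlap. In the authors' deposited tables its signal was 30.4 in HC and 5.30 in control at 7 days, and 42.7 in HC and 0.52 in control at 3 days.

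Others of this kind were Prupe.1G140400, Prupe.5G149500, Prupe.8G190500 and Prupe.6G177500. Prupe.1G140400 had 18.8, 43.3, 0 and 36.5 FPKM in HC buds at 7 days, with all 4 control libraries at 0. The same gene had 37.3, 66.8, 492 and 271 FPKM in HC buds, against 0, 0, 2.63 and 0 FPKM in control buds at 3 days. Prupe.5G149500 had 102, 522, 0 and 603 FPKM in HC buds, against 0, 750.2, 0 and 0 FPKM in control buds at 7 days, so its highest value of that day was in a control library. Prupe.8G190500, the second most abundant member by FPKM, had 1775, 966, 1599 and 1398 FPKM in HC buds, against 1099, 73.5, 139 and 0 FPKM in control buds at 7 days. It reached 2571, 4768, 5571 and 3318 FPKM in HC buds, against 916, 4681, 1529 and 1293 FPKM in control buds at 3 days. Its groups overlapped on both days. Prupe.6G177500 had means of 381 ± 258 FPKM in HC buds and 131 ± 208 FPKM in control buds at 7 days, and of 857 ± 1106 FPKM in HC buds and 405 ± 609 FPKM in control buds at 3 days (SD, n = 4 each).

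The members most uneven between the days were taken as 2 in each direction. Prupe.I000300 (above) and Prupe.8G107300 differed far more at 3 days. Prupe.8G107300 had 82.2, 50.1, 104 and 41.4 FPKM in HC buds, against 2.5, 12.9, 15.4 and 24.2 FPKM in control buds at 7 days. Its 3-day levels were 791, 173, 221 and 601 FPKM in HC buds, against 26.8, 0, 0.13 and 3.26 FPKM in control buds. The groups were separated on both days, with differences of 2.11 at 7 days and 7.38 at 3 days. Prupe.5G149500 (7.86 at 7 days and 2.68 at 3 days) and Prupe.1G316400 (6.31 at 7 days and 2.13 at 3 days) were the most uneven towards 7 days. Prupe.1G316400 had 65.1, 0, 98.5 and 93.7 FPKM in HC buds, against 0, 39.1, 0 and 0 FPKM in control buds at 7 days. At 3 days it had 14.5, 16.7, 18.6 and 38.3 FPKM in HC buds, against 17.1, 0, 63.4 and 0 FPKM in control buds, with overlap on both days. The difference was 2 or more larger at 7 days in 10 members and 2 or more larger at 3 days in 23, and in 40 members the days lay within 0.5 of each other.

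At the edge of the rule the choice turned on small amounts. Just inside stood Prupe.1G214900, with 2.03 at 7 days and 1.00 at 3 days, and Prupe.6G319700, with 1.73 at 7 days and 1.01 at 3 days. Just outside were Prupe.8G207500, with 1.30 at 7 days and 0.998 at 3 days, and Prupe.1G127900, with 0.992 at 7 days and 1.53 at 3 days. On the floor of 20 FPKM the lowest member was Prupe.3G187300 with a mean of 20.1 FPKM. The gene closest below the floor that met both differences was Prupe.8G204100 with 19.9 FPKM. These genes at the floor were named after their values were seen.

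The identifiers run along each scaffold, a property the rule did not use. Of the 139 members, 30 (21.6%) had another member within 10 identifiers, in 13 runs of which the longest held 4, and 543 of the other 5594 genes with 20 FPKM or more (9.71%) had a member as near. Directly adjacent members numbered 9 (6.47%), beside 64 of the other genes (1.14%). These 9 are the run of Prupe.3G143900 to Prupe.3G144100 and the pairs Prupe.1G032400 with Prupe.1G032500, Prupe.7G051200 with Prupe.7G051300 and Prupe.I000200 with Prupe.I000300. The run of 4 spanned Prupe.8G111000 to Prupe.8G112400, the latter named as its end after its values were seen. Whether adjacent genes are close copies that share reads was not tested. Across the 16 libraries, deviations from the group medians went together with r = 0.73 for Prupe.I000200 and Prupe.I000300, the highest value within any of the 13 runs. The lowest was r = -0.45 for Prupe.8G024500 and Prupe.8G024800, named for that reason after their values were seen. Within the run on scaffold 3 r lay between -0.02 and 0.42, and within the run of 4 on scaffold 8 between -0.26 and 0.70. The median over all pairs of members was 0.19. All pairs rest on the same libraries, which differ in the number of genes detected, so r is given as a description only.

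Within a group, some libraries held the highest value for more members than others did. HC replicate 4 was the highest HC library at 7 days for 48 members (34.5%), beside 25.0% of all 5733 genes, and HC replicate 2 the highest for 18 (12.9%), beside 22.1%. At 3 days HC replicate 1 was the highest HC library for 59 members (42.4%), beside 19.4% of all genes. Among control libraries, replicate 2 was the highest at 7 days for 62 members (44.6%), beside 23.2%. At 3 days no control library was highest for more than 39 members (28.1%, replicate 1), beside 22.7% of all genes for that library. The rule chose on group medians of these same libraries, so nothing is read from these shares.

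The change between days, averaged over both treatments, was left free by the differences in the rule but not by its floor of 20 FPKM. It was tested with limma (two-sided, moderated, adjusted over 16596 tested genes), and 28 of the 139 members differed between 7 and 3 days at an adjusted p under 0.05. Of these 22 fell and 6 rose (higher at 7 than at 3 days), or 15.8% and 4.32% of the members, beside 6.57% of tested genes lower and 6.65% higher at 7 days. Among tested genes with 20 FPKM or more 14.6% were lower and 13.0% higher. A gene could pass this floor through 1 day alone. Mean levels of Prupe.2G202600 in HC buds were 6.11 FPKM at 7 days and 206 FPKM at 3 days. Those of Prupe.3G120400 were 64.5 FPKM at 7 days and 2.98 FPKM at 3 days. The calls and their split into falls and rises are therefore not free of the choice of genes. The median of the members, as 7 minus 3 days, was -0.41, against 0.03 over all tested genes and -0.03 over those with 20 FPKM or more. Without control replicate 1 of 7 days, 20 members fell and 13 rose, with a median of -0.19. Without control replicates 1 and 3 of 7 days 15 fell and 11 rose, and the median was -0.005. The authors' deposited signal over all listed genes was lower at 7 days (3170275 in HC and 3421081 in control) than at 3 days (7236218 in HC and 7049152 in control), and its part in these changes was not tested.

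The smallest adjusted p among the members was that of Prupe.3G012400, which fell. Its 7-day values were 136, 63.2, 113 and 274 FPKM in HC buds and 26.7, 53.6, 37.4 and 34.0 FPKM in control buds. Its 3-day values were 941, 749, 919.7 and 836 FPKM in HC buds and 221, 433, 357 and 309 FPKM in control buds. All 7-day libraries of a treatment lay below all its 3-day libraries (log2 change -2.91 ± 0.24, SE, limma adjusted p = 1.02e-07, range over 25 alternatives 1.36e-08 to 4.03e-06), and HC stayed above control on both days with no overlap. Prupe.2G202600 had 11.0, 7.31, 0.68 and 5.41 FPKM in HC buds and 0, 0, 0 and 8.58 FPKM in control buds at 7 days. At 3 days it had 228, 178, 245 and 172 FPKM in HC buds and 6.73, 170, 4.72 and 20.7 FPKM in control buds (-4.34 ± 0.68, limma adjusted p = 0.000216, range over 25 alternatives 1.76e-05 to 0.00279). The HC groups of the 2 days were far apart, whereas in control 1 library at 7 days exceeded 2 at 3 days.

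Prupe.5G107500 had 8.99, 0, 19.4 and 0 FPKM in HC buds at 7 days, with control at 0 throughout, and 160.5, 103, 48.0 and 13.6 FPKM in HC buds and 9.52, 0, 0 and 6.75 FPKM in control buds at 3 days (-2.78 ± 0.75, limma adjusted p = 0.0179). This call was lost without control replicates 1 and 3 of 7 days (limma adjusted p = 0.055, range over 25 alternatives 0.00478 to 0.055). Prupe.6G156300 had 43.5, 44.0, 0 and 0 FPKM in HC buds and 0, 14.3, 0 and 0.96 FPKM in control buds at 7 days. Its 3-day values were 135, 14.1, 105 and 132 FPKM in HC buds and 43.6, 0, 66.0 and 119 FPKM in control buds. This fall (-3.42 ± 1.10, limma adjusted p = 0.0497) was lost in 15 of 25 alternatives, with limma adjusted p between 0.00643 and 0.215 over all of them, among them the fits without HC replicates 1, 3 or 4 of 3 days, control replicates 1, 3 or 4 of either day, or HC replicates 3 or 4 of 7 days. Of the most abundant members, Prupe.3G204900 (-1.63 ± 0.31, limma adjusted p = 0.00203) and Prupe.2G263900 (-1.05 ± 0.22, limma adjusted p = 0.0031) also fell, and both calls held in all 25 alternatives.

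The largest rise was in Prupe.3G229800. It had 456, 203, 362 and 165 FPKM in HC buds and 27.8, 80.3, 255 and 137 FPKM in control buds at 7 days. In the 3-day libraries it had 70.4, 8.53, 114 and 150.3 FPKM in HC buds and 0, 4.15, 5.73 and 0 FPKM in control buds. Every 7-day library lay above every 3-day library of its treatment (3.76 ± 0.60, SE, limma adjusted p = 0.000314, range over 25 alternatives 8.66e-05 to 0.00355). Prupe.3G120400 had 51.9, 62.5, 76.0 and 67.7 FPKM in HC buds and 9.26, 15.4, 2.98 and 17.1 FPKM in control buds at 7 days. The 3-day libraries held 8.86, 0, 2.47 and 0.58 FPKM in HC buds and 13.0, 0, 0 and 0 FPKM in control buds (3.51 ± 0.63, limma adjusted p = 0.000759). At 3 days its HC and control libraries overlapped and the highest value was in control, while at 7 days they were separated.

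Prupe.3G205900 rose with time as well (3.46 ± 0.72, limma adjusted p = 0.00332), with means of 176 ± 120 FPKM in HC buds and 88.2 ± 85.8 FPKM in control buds at 7 days, and 39.9 ± 47.3 FPKM in HC buds and 7.38 ± 12.1 FPKM in control buds at 3 days (SD, n = 4 each). Prupe.6G329600 had 133, 59.4, 88.1 and 95.8 FPKM in HC buds and 40.9, 48.2, 30.0 and 38.8 FPKM in control buds at 7 days, and 33.5, 54.7, 38.0 and 74.7 FPKM in HC buds and 0.46, 0, 4.47 and 15.4 FPKM in control buds at 3 days. Its rise (2.23 ± 0.46, limma adjusted p = 0.00287) came with no overlap between HC and control on either day. The calls of Prupe.3G229800, Prupe.3G120400, Prupe.3G205900 and Prupe.6G329600 held in all 25 alternatives. All 6 members that rose had higher mean levels at 7 than at 3 days in each treatment. For Prupe.4G099200, named after its values were seen, the change was only 0.06 in HC buds, against 3.13 in control buds. Its call held in 15 of 25 alternatives. All 22 that fell were lower at 7 days in HC buds and 21 of them in control buds, the exception being Prupe.1G032400, which was at 0 in control throughout. The calls rest on the average of both treatments, so nothing is read from this agreement in direction.

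**Figure D5:**
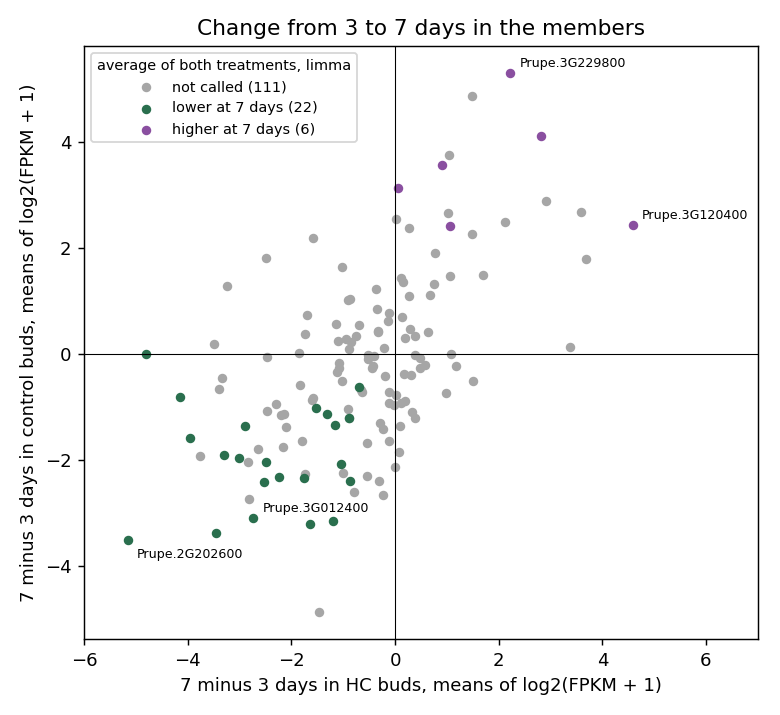
Change from 3 to 7 days of each member in control buds (vertical axis) and HC buds (horizontal axis), as 7-day minus 3-day means of log2(FPKM + 1), with colour for the limma call on the average of both treatments at an adjusted p under 0.05. The 22 members that fell lie at lower left and the 6 that rose at upper right, some on or close to an axis, with the other 111 in grey.

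The authors' deposited tables compare HC with control on the same libraries and so repeat the contrast that chose the members. They list 136 of the 139 members on each day, all but the 3 identifiers with the letter I. According to the authors' deposited tables, members with a log2 fold change above 0 numbered 130 at 7 days (median over all listed 1.28) and 130 at 3 days (median 1.64). At 7 days 34 members (25.0% of those listed) had a deposited adjusted p under 0.05 with higher HC, and 64 (47.1%) did at 3 days, beside 4.5% and 8.16% of listed genes with 20 FPKM or more in the authors' deposited tables. The authors' deposited tables put the log2 fold change of Prupe.3G144100 at 6.0 (7 days) and 5.45 (3 days), and that of Prupe.4G177600 at -0.005 (7 days) and -0.25 (3 days).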

How the data were processed

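Buds were profiled by RNA sequencing in 16 libraries of 4 groups of 4, grouped by the labels. The tools named per the submitters' processing notes are RSEM 1.2.31, STAR 2.5.2a and Trimmomatic, and no source used here names a genome build outright. A version suffix at the end of the matrix identifiers was removed where present. The deposited matrix holds FPKM as far as its values show, 1 column per library. The authors also deposited, per day, log2 fold changes, adjusted p-values and pooled signal values, by a method that the labels do not state. None of the reference table's 26412 genes could be paired with the 26873 identifiers (0 matches), so no gene names, sequences or lists by function were used.

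Members were found with a pseudocount of 1 on the log2 scale and group medians. The change between days was fitted with limma 3.58.1 (R 4.3.3, statmod 1.5.0, trend and robust settings) on log2(FPKM + 1), which understates changes of low genes, over genes with 1 FPKM or more in at least 4 libraries. All 139 members passed this filter. The contrast averaged 7 minus 3 days over HC and control, with Benjamini-Hochberg adjusted p under 0.05. P-values measure the spread between these libraries. The members and comparisons were chosen with earlier results of these data known. Named genes are the 8 largest smaller-of-both-days differences, the 3 most abundant, the 4 highest and 4 lowest called day changes, 2 genes each side of the threshold, the 6 most abundant in neighbouring runs and the 2 most uneven between days each way. Others say that they were chosen after their values were seen.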

Additional observations from a re-analysis of the deposited data

Results flagged for a closer look

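Within groups of 4 libraries, 24 of 124 tested sets (19.4%) had 1 library far from the other 3 on the log2(FPKM + 1) scale or in a library summary. Chance flags about 1 in 20 groups of ordinary values, but 13 of the 24 are control groups with the other 3 libraries at 0, which stand out by construction in genes chosen for low control medians, so the rate is not compared with chance. In several genes 1 control library alone stood above the rest. At 7 days these were Prupe.8G111000 (131.6 FPKM), Prupe.6G068300 (207.65 FPKM), Prupe.3G143900 (13.7 FPKM), Prupe.5G149500 (750.19 FPKM) and Prupe.1G316400 (39.07 FPKM), all in control replicate 2, and Prupe.1G155200 (3.79 FPKM) and Prupe.2G202600 (8.58 FPKM) in control replicate 4. At 3 days they were Prupe.8G111000 (6.47 FPKM), Prupe.6G068300 (878.92 FPKM), Prupe.3G143900 (23.23 FPKM), Prupe.4G177600 (1802.71 FPKM) and Prupe.3G120400 (13.04 FPKM) in control replicate 1. Prupe.4G017000 (1.62 FPKM) and Prupe.1G214900 (52.42 FPKM) stood out in control replicate 2 of 3 days, and Prupe.1G140400 (2.63 FPKM) in control replicate 3.

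Single low libraries were HC replicate 3 for Prupe.8G111000 (0 FPKM) and HC replicate 2 for Prupe.1G316400 (0 FPKM) and Prupe.1G214900 (17.42 FPKM) at 7 days. Control replicate 1 of 7 days was far below the other 3 for Prupe.1G214900, Prupe.7G051300 and Prupe.I000300 (0 FPKM each), and HC replicate 2 of 3 days for Prupe.6G156300 (14.09 FPKM). Control replicate 2 of 3 days stood apart in the median log2(FPKM + 1) of the members (0) and in the percent of members at 0 (55.4%).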

How the results depend on the processing

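The number of genes that met the rule was 139, and it was 227 with group means in place of medians (123 of the 139 among them), 271 with a floor of 10 FPKM, 72 with 40 FPKM and 753 with none. Leaving out 1 library gave 110 to 163. The members' median difference lay between 1.27 and 2.35 at 7 days and between 1.69 and 2.42 at 3 days over all settings, and since the rule chose on these values its sign shows no stability. Prupe.4G177600 at 7 days had -0.31 without control replicate 1 or 3, and also without control replicate 1 of 7 days and replicate 2 of 3 days together, and -0.48 without control replicates 1 and 3 of 7 days. Without 1 library its 7-day difference ranged from -0.31 to 10.29. Prupe.6G156300 had -0.49 at 7 days without HC replicate 1 or 2, and a range from -0.49 to 4.99 without 1 library. The cause was not tested. For the change between days, 28 members were called, and 17 with a pseudocount of 0.1 (13 lower), 38 with a pseudocount of 5 (29 lower), 42 with array quality weights (31 lower), 39 without control replicate 2 of 3 days and replicate 1 of 7 days (26 lower), and 22 to 33 without 1 library. Members higher at 7 days numbered 6, and 11 with array quality weights, 13 without control replicate 2 of 3 days and replicate 1 of 7 days, 11 without control replicates 1 and 3 of 7 days (an alternative chosen after seeing the data), and 4 to 13 without 1 library. Members lower numbered 22, and 16 to 26 without 1 library. Over all genes 2193 were called, 3304 with quality weights and 1817 to 2601 without 1 library. Members with another member directly adjacent numbered 9, and 41 had one within 20 identifiers.

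With the replicate block of treatment and replicate number, 32 members were called, 10 higher and 22 lower at 7 days. The labels do not say that a number marks 1 tree on both days, so the numbers were not taken as pairs. Correlations of the deviations of same-numbered libraries lay between -0.04 and 0.08 over 8 pairs. Those of differently numbered libraries of a treatment lay between -0.12 and 0.08. In 2 of the 8 pairs the own number gave the highest value. The labels name 1 set of trees per treatment for both days together, so both days may share trees. The p-values of the main fit do not allow for this.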
